A study of Mus musculus with 7 samples.

Results

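The Serpin genes encode a large family of protease inhibitors and their relatives, and they are described here in whole mouse uterus. Members were every symbol in the expression table made of Serpin, a clade letter from a to i, a number and any further letter. This rule found 63 of the 24964 listed genes. Of these, 21 averaged at least 1 FPKM (fragments counted on a gene, divided by its length and by the depth of the library) over the 7 libraries and are called expressed. They comprised 7 members of clade a, 8 of clade b, 2 of clade e and 1 each of clades f, g, h and i. Clades c and d had no expressed member. The last members inside this limit were Serpina1a at 1.13 and Serpina1b at 1.16 FPKM, and the first outside it were Serpinc1 at 0.770 and Serpine3 at 0.733 FPKM.

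The uteri came from mice 12 weeks old, all in diestrus. The control group had the genotype Pgrcre/+ and held 3 libraries, numbered 1, 2 and 4. The compared group had the genotype Pgrcre/+Foxl2LsL/+ and held 4 libraries, numbered 1 to 4. Both groups therefore carried 1 Pgrcre allele, in which Cre is made where the progesterone receptor gene is active, and by its title the series is about raised levels of FOXL2, a transcription factor of the forkhead family. Foxl2 itself was read at 11.1, 19.3 and 12.9 FPKM in the controls and at 12.7, 14.3, 14.8 and 17.2 FPKM in the libraries labelled Foxl2LsL. The groups overlapped, and the difference was 0.06 (log2, SE 0.18; limma adjusted p = 0.818). Whether transcripts of the Foxl2LsL allele would be counted on this gene is not given in the sources used here. The Foxl2 values thus do not separate the labels, and every direction below is between libraries as labelled. Nothing in the labels says whether each library was a separate animal, so p-values measure the spread between these samples, which may be technical.

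An inhibitory serpin offers a flexible loop as bait to a protease. When the protease cuts the loop, the serpin refolds and carries the protease along, still bound and distorted, so that both molecules are used up. Clade a serpins such as alpha-1 antitrypsin act mostly outside cells, clade b serpins mostly inside them, and clade e serpins restrain the plasminogen activators. Serpinh1 no longer inhibits proteases and instead chaperones collagen in the endoplasmic reticulum. In the uterus, secreted inhibitors enter the luminal fluid, and plasminogen activators with their inhibitors take part in tissue remodelling.

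The upstream sequences of the genes with the greatest differences are shown first, because near-identical copies limit what can be said about each. Mice carry several copies of the alpha-1 antitrypsin gene, and the table lists Serpina1a to Serpina1e. Below is a stretch of 88 bases of each copy that ends 0 to 62 bases upstream of its start site, 5′ to 3′ on the minus strand, from RefSeq (GRCm38.p6). Capitals mark TGTTTGC, a variant of the core that forkhead factors bind, and GTTAAT, the first part of a site for HNF1 factors.
Serpina1a, chr12:103863625-103863712: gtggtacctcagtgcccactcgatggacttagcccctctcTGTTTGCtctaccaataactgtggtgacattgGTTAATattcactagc
Serpina1b, chr12:103738200-103738287: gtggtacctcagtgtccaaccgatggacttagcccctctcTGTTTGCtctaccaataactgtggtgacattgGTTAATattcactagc
Serpina1c, chr12:103904962-103905049: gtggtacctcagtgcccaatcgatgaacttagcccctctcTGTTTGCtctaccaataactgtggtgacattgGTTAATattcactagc
Serpina1d, chr12:103773634-103773721: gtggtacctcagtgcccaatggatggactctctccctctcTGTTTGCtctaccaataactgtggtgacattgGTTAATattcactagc
Serpina1e, chr12:103956960-103957047: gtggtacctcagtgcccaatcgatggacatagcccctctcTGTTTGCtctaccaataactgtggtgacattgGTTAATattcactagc
The start sites are those of RefSeq. In GENCODE, another annotation, the spans of Serpina1b and Serpina1e reach further upstream, so their windows lie within those spans. Pairs of these windows differed at 2 to 7 bases, and 10 of the 88 positions varied over the 5 copies. The windows were placed on TGTTTGC, so its presence in all 5 was set by that choice. GTTAAT, which did not guide the placing, was also present in all 5.

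The other pair of upstream windows belongs to Serpine2 and Serpinh1, which had the largest falls. Each holds 100 bases ending 0 to 31 bases upstream of the RefSeq start site, on the minus strand (GRCm38.p6). The span of Serpine2 in GENCODE reaches further upstream, so its window lies within that span. Capitals mark the core of the GC box, CCGCCC, read on either strand.
Serpine2, chr1:79858697-79858796: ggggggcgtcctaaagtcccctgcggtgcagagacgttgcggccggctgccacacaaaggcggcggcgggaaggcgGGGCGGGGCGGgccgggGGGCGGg
Serpinh1, chr7:99353240-99353339: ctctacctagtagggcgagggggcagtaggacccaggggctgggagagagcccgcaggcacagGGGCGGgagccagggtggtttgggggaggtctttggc
The Serpine2 window was 79.0% G and C with 3 matches, 2 of which overlap, and the Serpinh1 window was 69.0% G and C with 1 match.

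Promoter entries of 300 bases existed for 54 of the 63 Serpin genes and for 17 of the 21 expressed ones. Motifs were searched on both strands and compared with all 32851 promoters of that length in the table. The 54 genes had 63 promoter entries, and counts below are of genes while percentages are of promoters. TGTTTGC was found in 9 of the 54 genes, Serpina1a to Serpina1e among them, and in 5.07% of all promoters. The usual forkhead core, TGTTTAC, was found in 0 of the 54 and in 3.65% of all promoters. GTTAAT was found in 11 of the 54 genes, again with Serpina1a to Serpina1e among them, and in 7.1% of all promoters. These copies are near-identical here and so are not separate cases. CCAAT was found in 20 genes and 37.4% of promoters, and CCGCCC in 8 and 35.7%. The heat shock element, taken as GAA, TTC and GAA with any 2 bases between each and searched because Serpinh1 is a heat shock protein, was found in 0 of the 54 genes and in 0.603% of all promoters. These are matches of letters and not measured sites.

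Each FPKM column was scaled to 63400000 to 67300000 fragments in the controls and to 47800000 to 65500000 in the libraries labelled Foxl2LsL, where numbers 2, 3 and 4 lay below every control. In all libraries 74.4% to 77.6% of the fragments lay on listed genes. Markers of stroma, smooth muscle and simple epithelium were present in every library. Several libraries stood apart in markers of other tissue. The summed FPKM of 9 adipocyte markers was 10.8, 28.9 and 158 in controls 1, 2 and 4, and 17.8, 224, 413 and 46.0 in libraries labelled Foxl2LsL 1 to 4. Control 4 also had the lowest simple epithelium sum, 887 FPKM against 1161 to 2084 in the others. Ovgp1, a product of the oviduct, was at 291 FPKM in control 2 and at 1.65 to 19.7 in the others. It made up most of the sum of 9 ovary and oviduct markers in control 2, 325 FPKM. That sum was 34.2 to 57.7 FPKM in the others. Whether control 2 held oviduct tissue was not tested. Gland markers summed to 68.3 to 100 FPKM in the controls and to 20.4 to 24.9 in the libraries labelled Foxl2LsL. In whole tissue, fewer cells of a type and less RNA per cell cannot be told apart.

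Across the family, 11 of the 21 expressed members differed between the groups, 8 higher and 3 lower in the libraries labelled Foxl2LsL. The test was limma on log2(FPKM + 1) with Benjamini-Hochberg adjustment over all 13334 tested genes and a threshold of 0.05. Of all tested genes 40.6% passed the same test, 16.7% higher and 23.9% lower, so that much of the transcriptome differed. The groups did not overlap for 11 of the 21 members and for 47.6% of all tested genes. The median log2 fold change was 0.27 over the 21 members and -0.05 over all tested genes. The filter bears on this count, because 6 members reached a mean of 1 FPKM only through the libraries labelled Foxl2LsL (Serpina1a, Serpina1b, Serpina1c, Serpina3g, Serpinb5 and Serpinb7), and 5 of those 6 passed the test. Of the 14 members whose mean was at least 1 FPKM in both groups, 6 passed. Without control 2 only 5 members passed, against 28.9% of all tested genes, among them Serpina1e, Serpinb8, Serpine2 and Serpinh1. With a mean of at least 5 FPKM, 5 of 11 members passed, against 42.0%, and among the 4 libraries lowest in adipocyte markers 9 of 21 passed, against 32.7%.

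**Figure D1:**
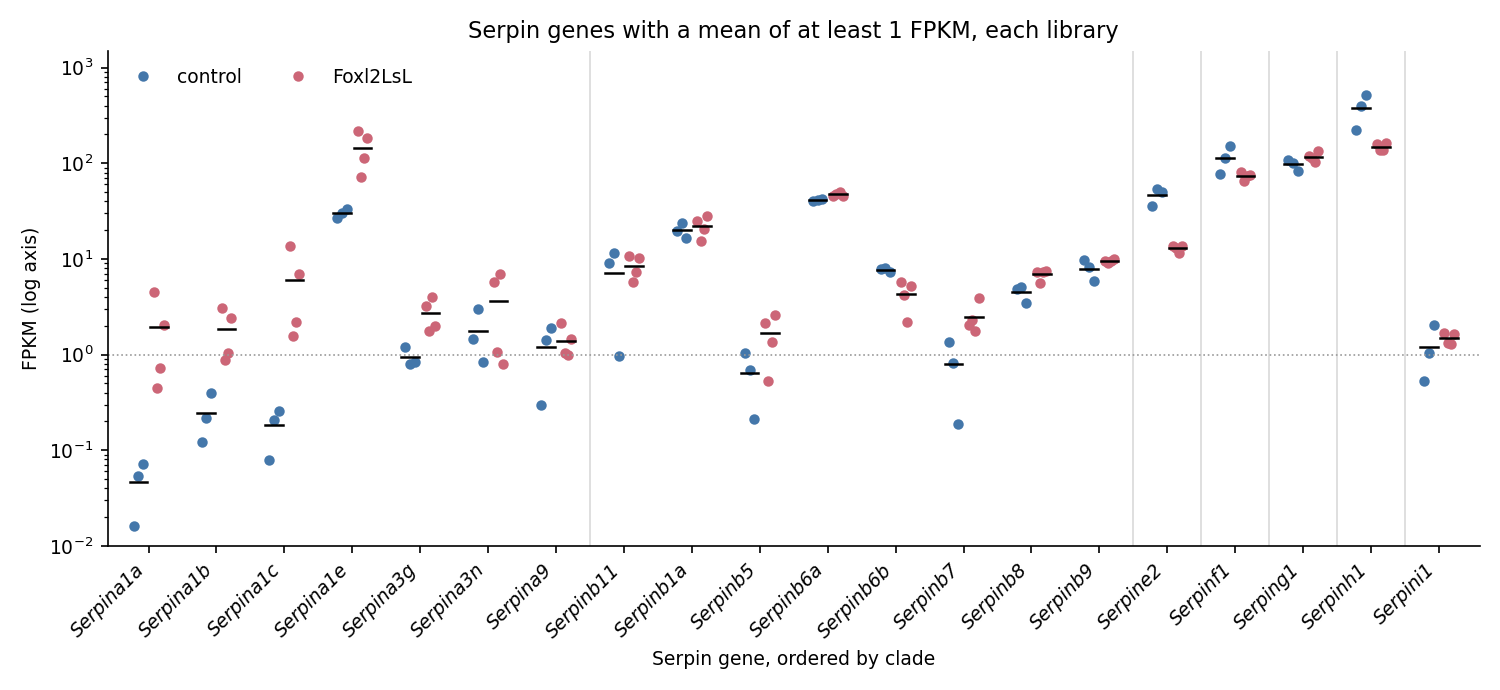
Each of 20 of the 21 expressed Serpin genes is plotted along the x axis by clade, with FPKM on a log y axis, 1 point per library (blue, 3 control; red, 4 labelled Foxl2LsL), a black bar at each group mean and a dotted line at 1 FPKM. Serpina1e rose from a mean of 30.1 to 146 FPKM, while Serpinh1 and Serpine2 had lower values in all 4 libraries labelled Foxl2LsL than in any control.

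The largest rises were in clade a, in the alpha-1 antitrypsin copies. Serpina1e (chr12:103946931-103958975, minus strand, GRCm38) was at 26.9, 30.1 and 33.5 FPKM in the controls and at 216, 72.5, 113 and 181 FPKM in libraries labelled Foxl2LsL 1 to 4. Every one of the latter was above every control, and they also differed widely among themselves, with number 1 highest and number 2 lowest. The means were 30.1 ± 3.31 (SD, n = 3) and 146 ± 65.0 FPKM (SD, n = 4), a ratio of 4.84. The log2 fold change was 2.12 (SE 0.35; limma adjusted p = 0.00285), and the call held in every alternative tried. Serpina1e ranked the sixth among the members in each control. In the libraries labelled Foxl2LsL it ranked the first in numbers 1 and 4, the second in number 3 and the third in number 2.

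The other Serpina1 copies were nearly silent in the controls. Serpina1c (chr12:103894926-103904887) was at 0.078, 0.209 and 0.257 FPKM in the controls and at 13.7, 1.54, 2.19 and 6.87 FPKM in libraries labelled Foxl2LsL 1 to 4 (log2 fold change 2.23, SE 0.57; limma adjusted p = 0.0170). Serpina1a (chr12:103853589-103863562) was at 0.016, 0.054 and 0.071 against 4.56, 0.443, 0.724 and 2.03 FPKM (1.28, SE 0.43; limma adjusted p = 0.0464), a call lost in 8 of 17 alternatives. Serpina1b (chr12:103728156-103830373) was at 0.122, 0.219 and 0.396 against 3.06, 0.881, 1.03 and 2.42 FPKM (1.12, SE 0.28; limma adjusted p = 0.0168). The calls of Serpina1b and Serpina1c were lost without control 2 (limma adjusted p = 0.0529 and 0.0509). For all 3 copies no library labelled Foxl2LsL overlapped a control, as was the case for 47.6% of all tested genes. These 3 copies reached a mean of 1 FPKM only through the libraries labelled Foxl2LsL, which favours such a gap. The log2(FPKM + 1) scale understates changes that start so near 0. Serpina1d (chr12:103763594-103773592) stayed under the filter, with 1, 1 and 4 fragments in the controls and 70, 6, 13 and 30 fragments in libraries labelled Foxl2LsL 1 to 4. That is a ratio of 17.2 with an exact interval of 7.68 to 47.8, which covers counting error only, and its limma adjusted p with no filter was 0.127.

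The copies did not keep a fixed ratio to each other. Per 100 fragments of Serpina1e, Serpina1c had 0.299, 0.721 and 0.796 fragments in the controls and 6.59, 2.21, 2.01 and 3.93 in libraries labelled Foxl2LsL 1 to 4. Serpina1a had 0.0855 to 0.298 fragments on this scale in the controls and 0.862 to 2.98 in the others. Serpina1b overlapped, with 0.470 to 1.23 in the controls and 0.947 to 1.47 in the others. Serpina1c and Serpina1a thus had a larger ratio to Serpina1e in each library labelled Foxl2LsL than in any control. The coding sequences of Serpina1b, Serpina1c, Serpina1d and Serpina1e were 96.3% to 96.7% identical in pairs, and that of Serpina1a was 91.4% to 93.3% identical to theirs. Of the 50-base windows of its transcripts, Serpina1e shared 33.6% with another Serpin gene, Serpina1b 34.2%, Serpina1a 60.0% and Serpina1c 71.1%. How reads matching several copies were counted is not given in the sources used here, so the split of reads among the copies is uncertain. Serpina1c also shares 429 exonic bases with B430119L08Rik on the other strand. Summed over the 5 copies, FPKM was 27.1, 30.6 and 34.3 in the controls and 238, 75.4, 117 and 193 in libraries labelled Foxl2LsL 1 to 4.

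All 5 copies had the same order among the libraries labelled Foxl2LsL, with number 1 highest, then 4, 3 and 2. The 12 simple epithelium markers, summing to 2084, 1328, 1805 and 1944 FPKM in numbers 1 to 4, had that order too, as did 14 stratified epithelium markers at 44.1, 16.6, 22.9 and 33.9 FPKM. In the controls the order went the other way, because Serpina1e was highest in control 4, where simple epithelium summed to 887 FPKM, and lowest in control 1, where it summed to 1703 FPKM. Of the 12 simple epithelium markers 3 rose, and of the 5 stratified epithelium markers tested 1 rose, against 16.7% of all tested genes. The simple epithelium sums of the groups overlapped. The part of these markers in the rise of the Serpina1 copies was not tested. Liver is the main source of alpha-1 antitrypsin in the body. The 8 hepatocyte markers summed to 0.721 to 11.5 FPKM in the controls and 1.04 to 21.9 FPKM in the others, and the single one tested did not pass. Most of the higher sums was Cyp2e1, which reached 8.91 FPKM in control 4 and 15.5 and 20.7 in numbers 2 and 3, the libraries with the highest adipocyte sums. The defining marker Alb was at 0.136 FPKM or less, Fgb at 0.022 or less and Apoa1 at 0.268 or less in every library. Ahsg was at 0.049 to 0.070 FPKM in the controls and 0.151 to 0.316 in the others, and Ttr was highest in control 4, at 1.67 FPKM.

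**Figure D2:**
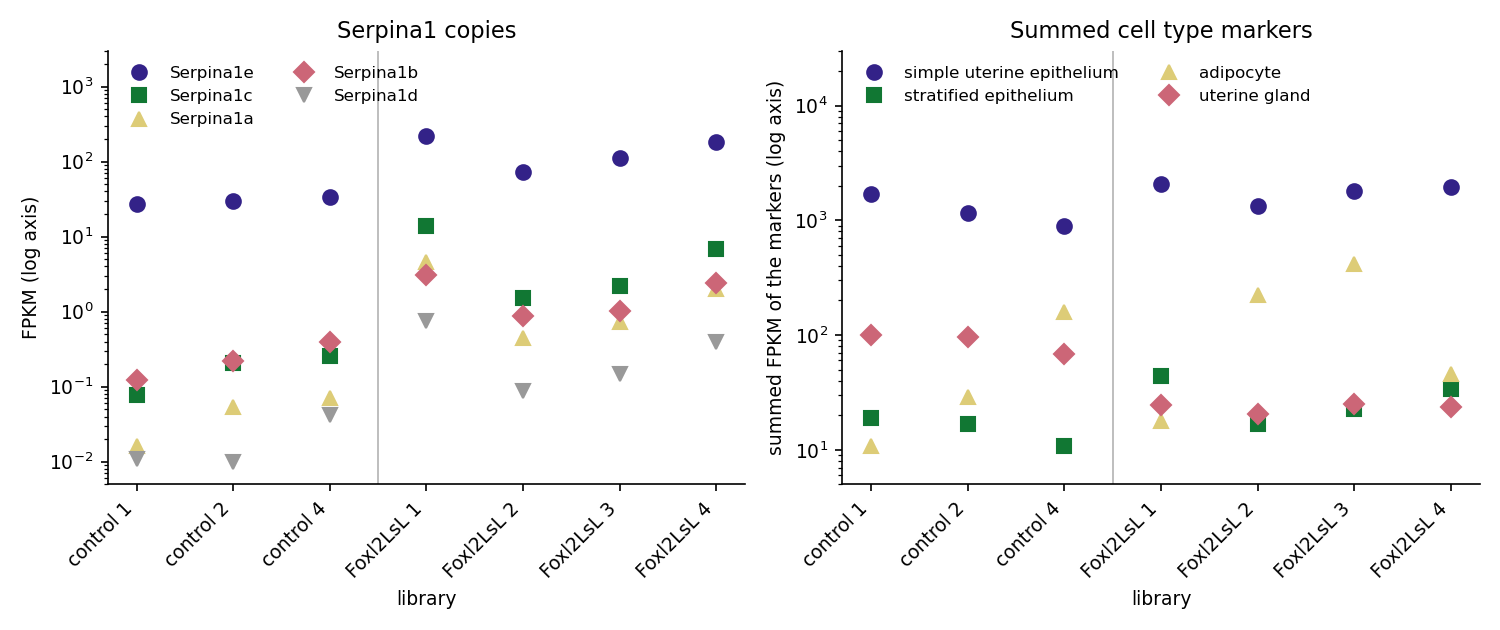
The left panel plots FPKM of the 5 Serpina1 copies in each of the 7 libraries and the right panel the summed FPKM of 4 sets of cell type markers, both on log y axes, with a grey line between the 3 controls and the 4 libraries labelled Foxl2LsL. The copies and the simple epithelium markers both run from highest in number 1 through 4 and 3 to lowest in number 2 of the right-hand group, while the adipocyte sum is highest in numbers 2 and 3.

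The remaining expressed genes of clade a lie in the same chromosome 12 cluster, which spans 103614786 to 104414329 and holds 24 members, 7 of them expressed. Serpina3g (chr12:104236245-104241939), an inhibitor found inside leukocytes that blocks cathepsins, was at 1.21, 0.797 and 0.844 FPKM in the controls. Levels were 3.21, 1.78, 4.0 and 1.97 FPKM in libraries labelled Foxl2LsL 1 to 4, all above the controls (log2 fold change 0.90, SE 0.22; limma adjusted p = 0.0140). The limma adjusted p was 0.0514 without control 2. Serpina3g reached a mean of 1 FPKM only through the libraries labelled Foxl2LsL. Over all tested genes 40.6% passed and 16.7% rose. Of 9 macrophage markers 4 rose (Csf1r, Mrc1, Cd163 and Itgam) and 5 did not pass, with a median log2 fold change of 0.64. Cd163 reached a mean of 1 FPKM only through the libraries labelled Foxl2LsL. The 9 markers summed to 158 to 234 FPKM in the controls and 216 to 285 in the others. Their part in the rise of Serpina3g was not tested. Serpina3n, an acute-phase inhibitor of granzyme B and cathepsin G, was at 1.44, 2.99 and 0.841 FPKM in the controls. The others were at 5.76, 1.07, 6.91 and 0.794 FPKM, high in numbers 1 and 3 and within the control range or below it in numbers 2 and 4. Its log2 fold change of 0.52 (SE 0.58) did not pass the test (limma adjusted p = 0.504). Serpina9, a serpin of germinal-centre B cells, was at 0.300, 1.43 and 1.87 FPKM in the controls and 2.14, 1.03, 0.980 and 1.45 FPKM in the others, which overlapped (0.18, SE 0.29; limma adjusted p = 0.658). Serpina9 shares 72 exonic bases with Gm28577.

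Clade b held 8 expressed members, of which 3 rose, 1 fell and 4 did not pass the test. Of all tested genes 40.6% passed, 16.7% higher and 23.9% lower. Among the 3 that rose, Serpinb7 reached a mean of 1 FPKM only through the libraries labelled Foxl2LsL. Serpinb7 (chr1:107399655-107452689), also called megsin, was at 1.35, 0.820 and 0.186 FPKM in the controls and at 2.05, 2.30, 1.76 and 3.85 FPKM in libraries labelled Foxl2LsL 1 to 4. The groups did not overlap, and the lowest control was number 4 (log2 fold change 0.99, SE 0.27; limma adjusted p = 0.0230). The call was lost with a replicate block (limma adjusted p = 0.0863), without control 2 (0.0568) and among the 4 libraries lowest in adipocyte markers (0.0528). Serpinb8 (chr1:107590006-107610484), an inhibitor of furin, was at 4.89, 5.04 and 3.42 against 7.27, 5.63, 7.22 and 7.46 FPKM (0.54, SE 0.14; limma adjusted p = 0.0179). Its lowest library labelled Foxl2LsL, number 2, was still above the highest control. The call of Serpinb8 was lost with a replicate block (limma adjusted p = 0.0949) and without number 3 of the libraries labelled Foxl2LsL (0.0506).

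The Serpinb6 copies went opposite ways. Serpinb6b (chr13:32965209-32979067) was at 7.78, 8.09 and 7.30 FPKM in the controls and at 5.71, 4.16, 2.20 and 5.20 FPKM in the others, all below the controls (log2 fold change -0.77, SE 0.24; limma adjusted p = 0.0354). This call was lost in 5 of 18 alternatives, among them leaving out any 1 control. Serpinb6a (chr13:33917918-34002794), an intracellular inhibitor of cathepsin G, was at 40.4, 41.5 and 42.1 against 45.6, 47.8, 49.8 and 45.7 FPKM. The groups did not overlap, but the step was small (0.19, SE 0.06; limma adjusted p = 0.0440), and the call was lost when any 1 library was left out. Their coding sequences were 81.0% identical, and at most 2.43% of the 50-base windows of either were shared with another Serpin gene. Serpinb6a also overlaps exons of genes on the other strand over 1587 bases, and whether strand was used in counting is not given in the sources used here.

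The other members of clade b showed no difference that passed the test. Serpinb1a, an inhibitor of neutrophil elastase and related proteases, was at 16.6 to 23.8 FPKM in the controls and 15.3 to 27.8 FPKM in the others (log2 fold change 0.13, SE 0.21; limma adjusted p = 0.644). Elane, the neutrophil elastase gene, averaged 0.0113 FPKM in the controls and 0.0155 in the others. Serpinb9, the intracellular inhibitor of granzyme B, was at 9.63, 8.24 and 5.80 against 9.55, 9.08, 9.50 and 9.995 FPKM (0.27, SE 0.14; limma adjusted p = 0.169). Gzmb itself averaged 2.02 ± 1.21 (SD, n = 3) in the controls and 0.507 ± 0.215 FPKM (SD, n = 4) in the others. It fell by 0.92 on the log2 scale (SE 0.30; limma adjusted p = 0.0429), a call lost in 10 of 16 alternatives. Serpinb5, known as maspin and made by epithelia, was at 1.04, 0.683 and 0.214 against 2.15, 0.527, 1.36 and 2.60 FPKM, with number 2 alone below the highest control (0.65, SE 0.31; limma adjusted p = 0.132). Serpinb5 passed at 0.89 without that library (limma adjusted p = 0.0298).

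Serpinb11 showed how far a single library can carry a value. It was at 9.10, 11.5 and 0.969 FPKM in controls 1, 2 and 4 and at 10.6, 5.74, 7.28 and 10.3 FPKM in the libraries labelled Foxl2LsL. Control 4, the control with the lowest epithelial and highest adipocyte sum, was far below the rest. The log2 fold change was 0.56 (SE 0.60; limma adjusted p = 0.488) with it and -0.28 without it (limma adjusted p = 0.366).

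**Figure D3:**
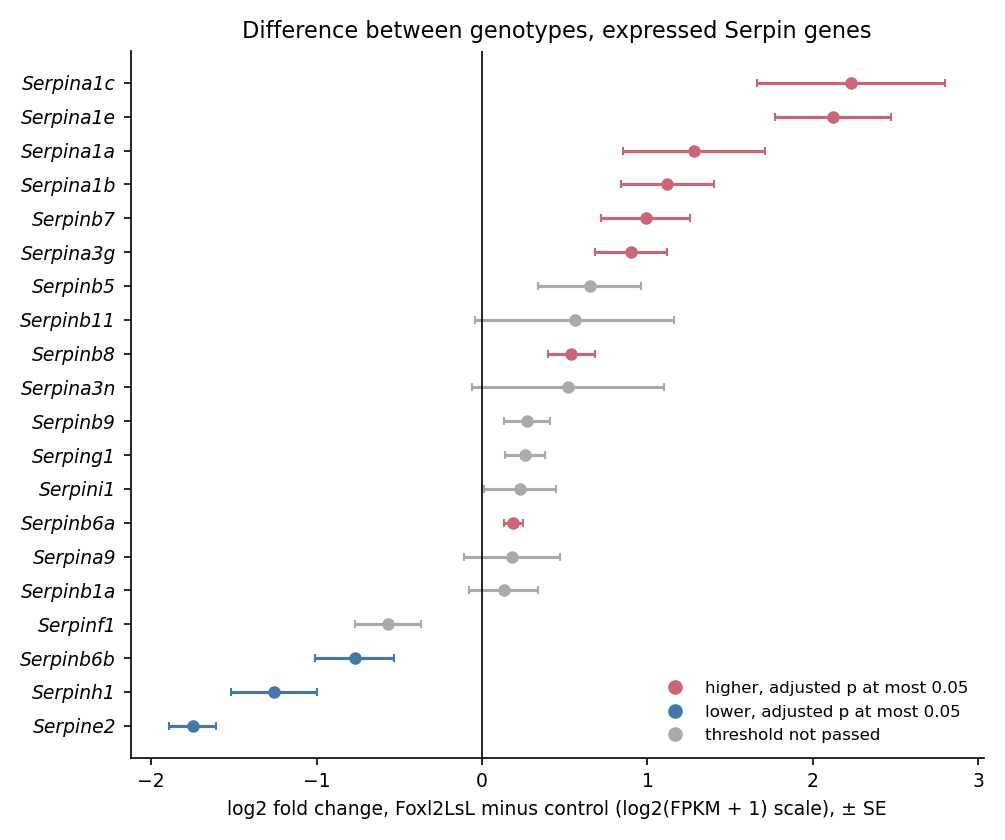
Points are the log2 fold changes, libraries labelled Foxl2LsL minus control on the log2(FPKM + 1) scale, of 20 of the 21 expressed Serpin genes with bars of 1 standard error. Red marks the 8 that rose, blue the 3 that fell (Serpine2, Serpinh1 and Serpinb6b) and grey the 9 that did not pass an adjusted p of 0.05.

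In clade e, a fall was found for Serpine2, known as protease nexin-1, which inhibits thrombin and the plasminogen activators at the cell surface. Serpine2 (chr1:79794197-79861180) was at 35.3, 53.7 and 50.2 FPKM in the controls and at 13.5, 12.9, 11.4 and 13.6 FPKM in libraries labelled Foxl2LsL 1 to 4. The latter lay close together, far below the lowest control. The means were 46.4 ± 9.76 (SD, n = 3) and 12.9 ± 1.01 FPKM (SD, n = 4), 3.61-fold lower in the libraries labelled Foxl2LsL (log2 fold change -1.75, SE 0.14; limma adjusted p = 0.000276). The call held in every alternative, with log2 fold changes from -1.94 to -1.61. The gland marker sums were also lower in every library labelled Foxl2LsL than in any control, and so were the endothelium marker sums. Of 4 gland markers tested 3 fell and 1 did not pass. Of 9 endothelium markers 6 fell, 2 rose and 1 did not pass. Over all tested genes 23.9% fell and 16.7% rose. The part of these markers in the fall of Serpine2 was not tested. Serpine2 shared no 50-base window of its transcripts with another Serpin gene.

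The proteases that clade e restrains moved less clearly than Serpine2. Plat, tissue plasminogen activator, was at 443, 221 and 80.9 FPKM in controls 1, 2 and 4 and at 87.1, 122, 124 and 115 FPKM in the others, so that the controls spread around them (log2 fold change -0.84, SE 0.49; limma adjusted p = 0.205). Plau, urokinase, averaged 5.30 ± 1.01 (SD, n = 3) and 3.92 ± 1.12 FPKM (SD, n = 4), and its log2 fold change of -0.38 did not pass (limma adjusted p = 0.178). Plaur, the receptor that holds urokinase on the cell, fell from 4.90 ± 0.611 to 2.02 ± 0.507 FPKM (-0.98, SE 0.16; limma adjusted p = 0.00264). Plg, the substrate of both activators, was at 0.008 FPKM or less in every library.

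Over the list of 57 serine proteases and receptors that serpins act on, 29 genes were tested, of which 12 rose, 4 fell and 13 did not pass, with a median log2 fold change of 0.27. Of all tested genes 16.7% rose and 23.9% fell. The filter bears on this list too. Klk1 and Gzma reached a mean of 1 FPKM only through the libraries labelled Foxl2LsL, and Gzmb only through the controls. Masp1, lower in the libraries labelled Foxl2LsL, was under the filter and not tested. Klk1, a tissue kallikrein that releases kinins, rose from 0.784 ± 0.191 (SD, n = 3) to 5.06 ± 0.953 FPKM (SD, n = 4; 1.76, SE 0.14; limma adjusted p = 0.000276). Gzma, a granzyme of cytotoxic lymphocytes, rose from 0.436 ± 0.193 to 2.90 ± 0.410 FPKM (1.44, SE 0.13; limma adjusted p = 0.000411). F3, the tissue factor that starts coagulation, rose from 34.9 ± 6.60 to 93.5 ± 13.7 FPKM (1.40, SE 0.16; limma adjusted p = 0.000770). Htra1, a secreted protease of the matrix, fell from 58.3 ± 10.6 to 30.7 ± 2.86 FPKM (-0.90, SE 0.13; limma adjusted p = 0.00208). The NK and T cell markers, a list of 10 that includes Gzma and Gzmb, summed to 5.43 to 10.4 FPKM in the controls and 9.99 to 11.1 FPKM in the others, and 1 rose and 1 fell of the 4 tested. Their part in these values was not tested.

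Serpins of the cell surface such as Serpine2 are held and cleared by glycans and receptors. Of 14 tested cofactors and clearance receptors 4 fell, 1 rose and 9 did not pass, with a median log2 fold change of -0.29. The 35.7% that passed is no more than the 40.6% of all tested genes. Gpc1, a glypican whose heparan sulfate chains bind such serpins, was at 37.5, 41.8 and 53.7 FPKM in the controls and 9.63, 9.98, 9.13 and 10.8 FPKM in the others. This fall of -2.05 (log2, SE 0.12; limma adjusted p = 0.000131) was as clear of the replicate spread as that of Serpine2. Hspg2, the basement membrane proteoglycan perlecan, fell by 0.59 on the log2 scale (limma adjusted p = 0.00299) and Thbs1, thrombospondin 1, by 1.09 (limma adjusted p = 0.00428). Vldlr, a receptor that takes up serpin complexes, rose by 0.85 (limma adjusted p = 0.0172). Lrp1, the main clearance receptor, averaged 27.4 ± 4.28 and 22.5 ± 2.79 FPKM (-0.27, SE 0.13; limma adjusted p = 0.136). Vtn, the adhesive protein vitronectin, averaged 2.45 ± 0.902 and 2.70 ± 0.338 FPKM (0.13, SE 0.17; limma adjusted p = 0.591).

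In clade f, Serpinf1 (chr11:75409769-75422701), the secreted anti-angiogenic factor PEDF, was at 77.0, 114 and 150 FPKM in controls 1, 2 and 4. Levels were 81.2, 65.6, 73.7 and 74.6 FPKM in libraries labelled Foxl2LsL 1 to 4, so control 1 lay within the other group. The log2 fold change was -0.57 (SE 0.20; limma adjusted p = 0.0561) and it passed at -0.82 without control 1 (limma adjusted p = 0.00484). The 9 endothelium markers summed to 180 to 235 FPKM in the controls and 133 to 157 FPKM in the others. Of these markers 6 fell and 2 rose, against 23.9% and 16.7% of all tested genes. Their part in the values of Serpinf1 was not tested.

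Clade g is Serping1 alone (chr2:84765387-84775444), the C1 inhibitor, which blocks the first proteases of complement and plasma kallikrein. It was at 107, 101 and 83.4 FPKM in the controls and at 118, 113, 103 and 134 FPKM in the others, with only number 3 under the highest control (log2 fold change 0.26, SE 0.12; limma adjusted p = 0.112). Its targets, named after their values were seen, went both ways. C1s1 rose from 85.9 ± 4.68 (SD, n = 3) to 111 ± 7.80 FPKM (SD, n = 4), by 0.37 on the log2 scale (limma adjusted p = 0.00939), and C1s2 by 0.62 (limma adjusted p = 0.0125). C1ra rose by 0.27 (limma adjusted p = 0.0452), a call lost in 10 of 17 alternatives. Lower values were seen for targets under the filter, which were not tested. Masp1 averaged 1.56 FPKM in the controls and 0.388 in the others, and Klkb1, plasma kallikrein, 0.169 and 0.048, without overlap in either. Masp2 averaged 0.784 and 0.200 FPKM, with overlap, and C1rb 0.0253 and 0.0295 FPKM.

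Clade i was represented by Serpini1, neuroserpin, an inhibitor of tissue plasminogen activator. It was at 0.532, 1.03 and 2.05 FPKM in controls 1, 2 and 4 and at 1.68, 1.31, 1.30 and 1.63 FPKM in the others, all inside the control range (log2 fold change 0.23, SE 0.22; limma adjusted p = 0.444). Without control 4 it passed at 0.49 (limma adjusted p = 0.0345), and without control 1 it was -0.01.

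Serpinh1 was the most abundant serpin in every control. This collagen chaperone (chr7:99345376-99353239), also called HSP47, was at 220, 398 and 521 FPKM in controls 1, 2 and 4 and at 161, 136, 138 and 161 FPKM in libraries labelled Foxl2LsL 1 to 4. All 4 of the latter were below every control, and the controls spread more than they did. The means were 380 ± 151 (SD, n = 3) and 149 ± 13.8 FPKM (SD, n = 4), 2.55-fold lower in the libraries labelled Foxl2LsL (log2 fold change -1.26, SE 0.26; limma adjusted p = 0.00757). Among the 4 libraries lowest in adipocyte markers, controls 1 and 2 and numbers 1 and 4 of the other group, it was -0.88 and did not pass (limma adjusted p = 0.0657).

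Of 25 tested genes that fold and process collagen alongside Serpinh1, 11 fell, 1 rose and 13 did not pass, with a median log2 fold change of -0.38. Of all tested genes 23.9% fell and 16.7% rose, with a median of -0.05. The count of 12 that passed dropped to 6 without number 3 of the libraries labelled Foxl2LsL and to 6 among the 4 libraries lowest in adipocyte markers. Each is 24.0% of the 25, against 29.8% and 32.7% of all tested genes in those settings. Of these 6, 5 fell in the first setting and 4 in the second. Fkbp10, a chaperone of procollagen, fell from 32.5 ± 5.54 (SD, n = 3) to 14.2 ± 2.06 FPKM (SD, n = 4; -1.13, SE 0.14; limma adjusted p = 0.00112). P4ha2, a subunit of the prolyl hydroxylase of collagen, fell from 30.5 ± 2.43 to 12.4 ± 3.37 FPKM (-1.27, SE 0.19; limma adjusted p = 0.00197). Colgalt1, which adds galactose to collagen, fell from 63.0 ± 6.78 to 42.1 ± 2.23 FPKM (-0.57, SE 0.09; limma adjusted p = 0.00229). The exception was Pcolce2, an enhancer of procollagen cleavage, which was at 2.38, 2.98 and 1.76 FPKM in the controls and 20.4, 28.9, 36.2 and 26.6 FPKM in the others (3.09, SE 0.20; limma adjusted p = 0.000131).

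The fibrillar collagens themselves did not pass. Col1a1 was at 191, 344 and 466 FPKM in controls 1, 2 and 4 and at 214, 128, 150 and 211 FPKM in the others (log2 fold change -0.86, SE 0.31; limma adjusted p = 0.0595). Col3a1 was at 244, 491 and 773 against 369, 242, 287 and 340 FPKM (-0.56, SE 0.36; limma adjusted p = 0.237). In the controls Serpinh1, Serpinf1, Col1a1 and Col3a1 all ran from lowest in number 1 to highest in number 4. Over all tested genes 16.7% rose and 23.9% fell. Of 9 uterine stroma markers 2 rose (Dcn and Nt5e), 4 fell (Hoxa10, Hoxa11, Hand2 and Vim) and 3 did not pass. Their median log2 fold change was -0.40. They summed to 837 to 1165 FPKM in the controls and 1363 to 1507 FPKM in the others, a rise held by Dcn, which averaged 411 and 978 FPKM. Of 10 smooth muscle markers 4 rose and 6 did not pass (median 0.51), with sums of 970 to 1845 and 1678 to 2120 FPKM. Their part in these values was not tested.

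**Figure D4:**
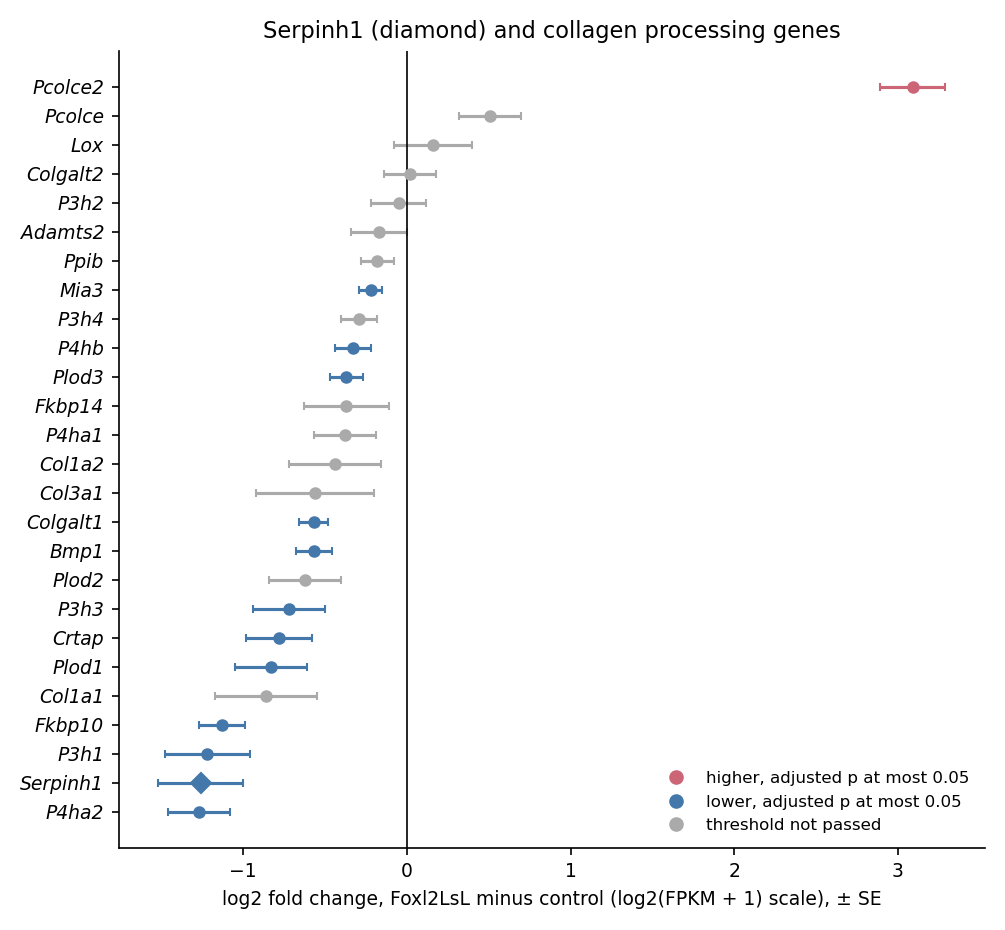
Log2 fold changes (libraries labelled Foxl2LsL minus control, log2(FPKM + 1) scale, bars of 1 standard error) of Serpinh1, drawn as a diamond, and of the 25 tested genes that fold or process collagen. Of the list 11 genes fell (blue), 13 did not pass (grey) and Pcolce2 alone rose (red), by 3.09.

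The makeup of the serpin transcripts shifted from Serpinh1 towards Serpina1e. FPKM is per length, so members can be added and compared. The summed FPKM of the 63 members was 570, 807 and 926 in controls 1, 2 and 4 and 737, 503, 561 and 700 in libraries labelled Foxl2LsL 1 to 4, which overlapped. Serpinh1 made up 38.7% to 56.3% of that sum in the controls and 21.8% to 27.1% in the others. Serpina1e made up 3.62% to 4.72% in the controls and 14.4% to 29.3% in the others. Serpine2 made up 5.43% to 6.66% in the controls and 1.83% to 2.57% in the others. Shares add to a fixed whole, so a rise in one lowers the rest.

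**Figure D5:**
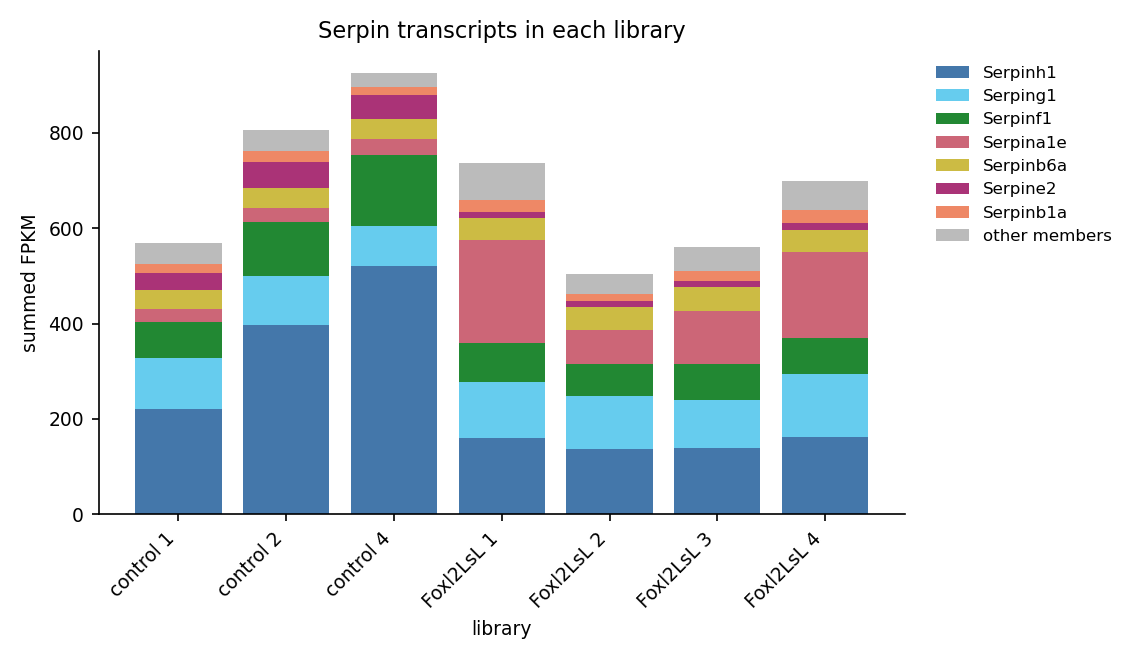
Stacked bars give the summed FPKM of the 63 Serpin genes in each library, split into the 7 most abundant members and the rest. Serpinh1 takes 38.7% to 56.3% of the bar in the 3 controls and 21.8% to 27.1% in the 4 libraries labelled Foxl2LsL, where Serpina1e takes 14.4% to 29.3%.

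Of 22 tested protease inhibitors outside the family, 5 rose, 5 fell and 12 did not pass, with a median log2 fold change of -0.18. The 45.5% that passed lies near the 40.6% of all tested genes. Spink8, a Kazal-type inhibitor, was at 13.9, 12.8 and 16.3 FPKM in the controls and 1.78, 3.14, 2.21 and 1.71 FPKM in the others (-2.27, SE 0.16; limma adjusted p = 0.000168). Wfdc1 fell by 1.83 on the log2 scale (limma adjusted p = 0.00342). Wfdc2, a secreted epithelial protein, rose from 436 ± 127 (SD, n = 3) to 1006 ± 212 FPKM (SD, n = 4; 1.22, SE 0.23; limma adjusted p = 0.00493). Spint2, a membrane-bound Kunitz inhibitor of epithelia, rose from 133 ± 41.1 to 281 ± 39.3 FPKM (1.11, SE 0.21; limma adjusted p = 0.00534). Slpi, an inhibitor of neutrophil elastase like alpha-1 antitrypsin, averaged 3.40 ± 0.812 and 3.003 ± 2.07 FPKM (-0.24, SE 0.35; limma adjusted p = 0.605).

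Of the 42 members under the filter, 10 were listed at 0 in all 7 libraries (Serpina6, Serpina7, Serpinb3a, Serpinb3b, Serpinb3d, Serpinb9c, Serpinb9e, Serpinb9f, Serpinb9g and Serpini2). With those 10 included, 20 members had at most 3 fragments in every library, the floor used here for detection. The remaining 32 members could be tested with no filter on low values, a setting in which 27.6% of 21011 genes passed, and 4 of the 32 passed.

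Serpind1, heparin cofactor II, is a thrombin inhibitor made mainly by the liver and the sole member of clade d. Serpind1 (chr16:17331371-17343575) had 1, 2 and 3 fragments in the controls and 59, 73, 58 and 55 fragments in libraries labelled Foxl2LsL 1 to 4. It was thus at or under the floor in every control and well above it in all 4 others, with a ratio of 35.4 after scaling to the library totals (exact interval 16.0 to 97.5, counting error only; limma adjusted p with no filter = 0.00199). Its level stayed low, at 0.698 FPKM or less.

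The other 3 that passed with no filter were in clade b. Serpinb12 had 23, 21 and 33 fragments in the controls and 5, 5, 5 and 1 in the others, a ratio of 0.180 (exact interval 0.0982 to 0.312; limma adjusted p = 0.00385). Serpinb9b had 41, 32 and 11 against 5, 2, 6 and 2 fragments, a ratio of 0.155 (0.0830 to 0.270; limma adjusted p = 0.0339). Serpinb10 had 12, 15 and 10 against 37, 28, 33 and 61 fragments, a ratio of 3.73 (2.59 to 5.49; limma adjusted p = 0.0352). No library of one group overlapped the other for any of these 3. They were named because they passed, so this is not separate support. With the filter, the groups did not overlap for 47.6% of all tested genes.

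Other low members followed single libraries. Serpina5, the protein C inhibitor, had 3, 6 and 0 fragments in the controls and 75, 0, 9 and 19 in libraries labelled Foxl2LsL 1 to 4. Serpinb2, the plasminogen activator inhibitor of macrophages and placenta, had 8, 24 and 7 against 8, 0, 4 and 63 fragments. Serpina3c had 0, 4 and 40 against 24, 46, 92 and 20 fragments, and its highest library in each group, control 4 and number 3, had the highest adipocyte sum of that group. The part of adipose tissue in Serpina3c was not tested. Serpinc1, antithrombin, had 75 to 125 fragments in every library and overlapped between the groups, as did Serpine3 with 47 to 78 fragments.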

How the data were processed

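RNA sequencing of whole uterus was compared between 3 control libraries and 4 libraries labelled Foxl2LsL. Total RNA was extracted with TRIzol, per the labels' protocols. The authors deposited FPKM per gene with 1 column per library, and each gene's length in bases stands beside it as another value, per the file headers. STAR 2.5.2b, featureCounts 1.5.0-p1 (Subread), DESeq2 1.12.4 and mm10 are named, without roles, in the submitters' processing notes. The annotation, strand setting and treatment of reads matching several genes are not given in the sources used here.

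FPKM was converted to log2(FPKM + 1), and the 13334 genes with a mean of at least 1 FPKM were tested with limma 3.58.1 in R 4.3.3 (lmFit, eBayes with an intensity trend) and Benjamini-Hochberg adjustment, threshold 0.05. The step was tested on simulated data in which 200 of the 13334 genes were changed. Far more genes were called here, so that test does not bear on this setting. Fold changes on this scale understate changes of low genes. Fragments were recovered because FPKM times length fell on whole multiples of 1 step per library, fitted on genes of at most 1500 bases and 20 multiples. In each library 100% of 1653 to 1832 low values lay within 0.1 of a whole number, against 20% by chance. A gene of 2000 bases at 1 FPKM held 95.6 to 135 fragments. Exact 95% intervals of fragment ratios cover counting error only, since PCR copies are not independent molecules, and the floor was 3 fragments per library.

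Positions came from GENCODE M21 on GRCm38, which matched 63 of 63 symbols. Promoters came from RefSeq on GRCm38.p6. Shared windows and identities were computed from GENCODE transcripts with Python 3.11.15. All expressed members were named except 1, which is not reported here; each partner list gave up to 4 genes with the smallest adjusted p, plus Plau, Plat, Plaur, Plg, Lrp1, Vtn, Col1a1, Col3a1, Slpi and Foxl2. Gzmb, C1s1, C1s2, C1ra and Elane were added as targets of members. The members and lists were chosen with earlier results of these data known. The labels do not say that replicate numbers pair the samples, so no block was fitted in the main comparison. Alternatives varied the pseudocount, filter, scaling, model and libraries.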

Additional observations from a re-analysis of the deposited data

Results flagged for a closer look

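In the 4 libraries labelled Foxl2LsL, Serpinb8 was at 7.27, 7.22 and 7.46 FPKM in numbers 1, 3 and 4 and at 5.63 FPKM in number 2. The distance of number 2 to the nearest other library was 0.872 of the group's whole range, above the limit of Dixon's test for 4 samples. The group was examined in this way for each of the 21 expressed members, and chance alone marks about 1 group in 20. Number 2 also had the lowest simple and stratified epithelium sums of its group.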

How the results depend on the processing

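Of the 11 members that passed, only Serpina1e and Serpine2 passed in all 18 alternatives run for them, and no called member changed direction. The count of members was 5 with a mean of at least 5 FPKM, where 11 were tested, and 5 to 10 when single libraries were left out. Without control 2 it was 5, and Serpina1a, Serpina1b, Serpina1c, Serpina3g, Serpinb6a, Serpinb6b and Serpinb7 lost the call, with limma adjusted p from 0.0509 to 0.110. In that setting 28.9% of all genes passed. Serpinb8 lost the call without number 3 of the libraries labelled Foxl2LsL (limma adjusted p = 0.0506) and with a replicate block (0.0949). Over all genes the 5409 calls became 3853 to 5328 with single libraries left out.

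Replicate numbers 1, 2 and 4 occur in both groups, and deviations from the group means correlated by 0.228, -0.0306 and -0.112. So few libraries cannot settle whether those with the same number are paired, and the labels do not say. With a replicate block 7 members, 3243 of all genes and 7 genes of collagen processing passed. The same 6 libraries without the block gave 8 members, 3975 genes and 6 genes of collagen processing.

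An alternative chosen after seeing the data kept the 4 libraries lowest in adipocyte markers. It called 9 members, 10 in place of 16 proteases and receptors, and 6 in place of 12 collagen processing genes. Calls over all tested genes also dropped, from 40.6% with all 7 libraries to 32.7% with these 4. With single libraries left out, the counts were 6 to 17 for collagen processing, 3 to 6 for cofactors and clearance receptors, 11 to 15 for proteases and receptors, and 7 to 13 for other inhibitors.

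Directions that turned were all of genes that had not passed. With single libraries left out, the log2 fold change ran from -0.17 to 0.41 for Serpina9, -0.01 to 0.49 for Serpini1, -0.05 to 0.32 for Vtn and -0.1 to 0.28 for Foxl2, in each case lowest without control 1. It ran from -0.28 without control 4 to 1.05 without control 2 for Serpinb11. For Foxl2 it was -0.01 without number 4 of the other group. Among the 4 libraries lowest in adipocyte markers it was -0.01 for Vtn, 0.03 for Col3a1 and 0.02 for Slpi. The cause was not tested. Of the 21 partner genes called, 16 passed in every alternative run, and Vldlr, C1s1, C1s2, C1ra and Gzmb did not. Most of the 21 were named for the smallest adjusted p of their list, which favours passing again. This count is therefore no measure of how stable the lists are. Members with few fragments are limited by depth, and a value of 3 fragments or less in a library cannot be told from 0.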
